A study of Mus musculus with 8 samples.

Results

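The genes described here encode the machinery that copies nuclear DNA in S phase, and they were followed in the embryonic mouse retina after loss of Smo, the membrane protein that passes the Sonic hedgehog (Shh) signal into the cell. The set was chosen by gene symbol and holds 46 genes of the 57180 in the deposited count table, sorted by role into origin licensing (6 genes), the MCM helicase (6), helicase activation (6), the sliding clamp and its loader (6), DNA polymerases and primase (7), strand joining and single-strand binding (5), nucleotide supply (5), chromatin assembly (2) and the E cyclins with their kinase (3). All 46 passed the filter on low counts and were tested.

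RNA of isolated retinas, with all retinal cell types together, was profiled by 3′-Tag-Seq, a method that reads only the tail end of each transcript, so long genes do not gain counts over short ones. The 4 control libraries were homozygous for the conditional Smo allele (Smo CKO/CKO) and are labelled with no Cre, and the 4 Rax-SmoCKO libraries carried the same alleles with Rax-Cre, a BAC transgene that is active from the optic vesicle onwards and so reaches the retina, the retinal pigment epithelium and the optic stalk. The Smo line had been crossed to an albino CD-1 background. The series design places both groups at embryonic day 13, and the study's text gives littermate controls of the same stage. The sample labels instead count up by 1 a sample, from day 13 in control replicate 1 to day 20 in Rax-SmoCKO replicate 4, and if those days held, age and group could not be told apart. No library carried Rax-Cre with intact Smo, so an effect of the transgene cannot be told apart from the loss of Smo. The sources used here leave unsaid whether a library is 1 embryo or a pool, and p-values therefore reflect the scatter of these samples, which may be technical.

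Before a cell can copy its DNA, the origin recognition complex, Cdc6 and Cdt1 load rings of Mcm2 to Mcm7 onto the chromosome in G1, and cyclin E with Cdk2 then helps to fire these origins together with Cdc45, the GINS complex and Mcm10. Primase and the polymerases extend the new strands on the Pcna clamp, Lig1 seals the fragments, and chromatin assembly factor 1 puts nucleosomes back. Many of these genes are targets of the E2F transcription factors, which are released when the D cyclins and their kinases inactivate the retinoblastoma protein. In the embryonic retina the dividing progenitor cells use this machinery, and ganglion cells and the other neurons born from them have left the cell cycle.

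Library totals were 3017480 to 4615667 counts, and levels are given as CPM, counts per 1000000 of the TMM-scaled library size. SE is the standard error of a log2 fold change, and adjusted p-values without another name are from edgeR. The targeted gene was checked first. Smo had 23.8, 21.4, 16.3 and 23.2 CPM in control replicates 1 to 4 and 2.85, 4.95, 3.23 and 3.66 CPM in Rax-SmoCKO replicates 1 to 4, and Gli1, a transcription factor gene that the pathway switches on, had 21.8, 20.5, 11.7 and 28.0 CPM in control replicates 1 to 4 and 0.714, 4.09, 3.49 and 1.99 CPM in Rax-SmoCKO replicates 1 to 4. Both fell (log2 fold changes -2.50 and -2.95, adjusted p = 0.000254 and 0.00438, edgeR), and the groups did not overlap. The sources used here do not place the 3′ tags of Smo relative to its deleted part, so its count does not check the deletion itself. A list of 9 retinal progenitor markers, among them Pax6 and Lhx2, summed to 5676 to 6050.0 CPM in control and 5509 to 6075 CPM in Rax-SmoCKO, so the libraries hold the labelled tissue. Control replicate 2 held 19233 CPM of lens genes, against at most 470.5 CPM in any other library, and Rax-SmoCKO replicates 2 and 3 held 1131 and 893 Y-linked counts, against at most 1 in any other library. Y-linked counts mark male tissue, so sex was not balanced between the groups, and it was not part of the fit. Results are given below with and without these pairs of libraries where that alters a call or a direction.

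The replication genes had lower values in Rax-SmoCKO as a group, by small amounts that did not pass the test gene by gene. Of the 46 genes, 45 had a log2 fold change below 0, or 97.8%, beside 50.4% of all 14730 tested genes. Their median was -0.24 with a range from -0.50 for the helicase component Gins3 to 0.15 for the single-strand binding protein Rpa3, beside a median of -0.0018 over all tested genes. Together they took 0.516% to 0.549% of a control library's counts and 0.439% to 0.471% of a Rax-SmoCKO library's. In bulk samples, fewer cells of a type and less RNA per cell cannot be told apart, so these values do not say whether fewer cells were replicating or each held less of these transcripts.

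None of the 46 genes passed an adjusted p under 0.05 in edgeR's quasi-likelihood test, in which 0.095% of all tested genes passed in either direction and 0.0611% were lower. With an absolute log2 fold change over 1 as well, 0 of the 46 and 0.0407% of all tested genes passed. At an unadjusted p under 0.05, 28 genes (60.9%) were lower and 0 higher, against 4.68% of all tested genes lower and 4.8% higher. In 21 genes (45.7%) the groups did not overlap and Rax-SmoCKO was lower, against 2.95% of all tested genes, and in 0 genes was it higher without overlap, against 2.68%. Groups that do not overlap always give an exact permutation p of 0.0286 (two-sided), the smallest that 4 against 4 libraries allow. For those 21 genes it is therefore no further test. DESeq2 gave an adjusted p to 41 of the genes and called 5 of them lower, Mcm3, Mcm5, Mcm7, Rfc3 and Rrm2. It called 0.287% of all genes with a value lower. Limma-voom called 1, Mcm7, against 0.0747% of all tested genes called lower. The 95% intervals held 0 for 18 genes, lay wholly below -0.1 for 16 and lay wholly above -0.5 for 31, so for most of the genes a fall of more than 0.5 on the log2 scale is outside the interval.

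**Figure D1:**
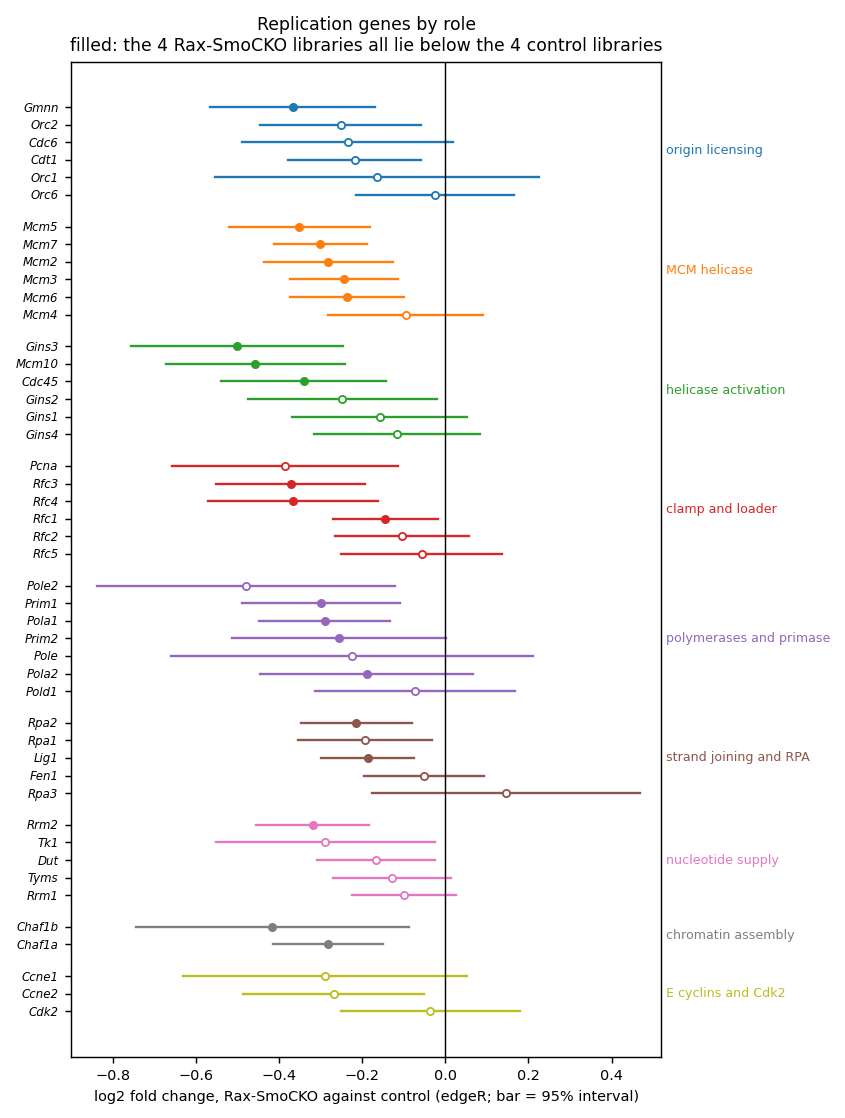
Log2 fold change of each of the 46 replication genes, Rax-SmoCKO against control, on the x axis, with the genes in rows grouped and coloured by role and bars for the 95% interval from edgeR. Rpa3 is the 1 gene above 0, and filled points are the 21 genes whose 4 Rax-SmoCKO libraries all lie below the 4 control libraries.

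Summed over all 46 genes, the level was 5387, 5280.0, 5149 and 5454 CPM in control replicates 1 to 4 and 4708, 4610.0, 4557 and 4419 CPM in Rax-SmoCKO replicates 1 to 4. The groups were apart, and the Rax-SmoCKO mean was 86.0% of the control mean. Expressed as each gene's percentage of its control mean, the median gene stood at 97.6 to 102% in the control libraries and at 80.7 to 88.0% in the Rax-SmoCKO libraries. Between 41 and 44 of the 46 genes lay below their control mean in each Rax-SmoCKO library, against 16 to 32 in each control library. Rax-SmoCKO replicate 4 had the lowest sum. Control replicate 2, the library with lens RNA, and Rax-SmoCKO replicates 2 and 3, rich in Y-linked counts, lay inside the range of the other libraries of their group.

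**Figure D2:**
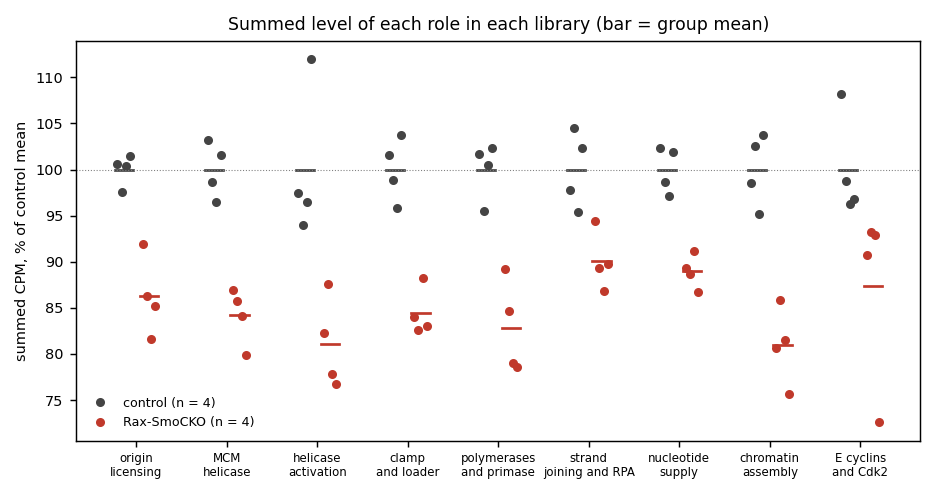
Summed CPM of the genes of each role in each library, as a percentage of the control mean on the y axis, with roles on the x axis, 1 point per library (dark for control, red for Rax-SmoCKO, in replicate order within a group) and a bar for the mean of each group (n = 4). In all 9 roles the Rax-SmoCKO points lie below the control points, with means from 80.9% of control for chromatin assembly to 90.1% for strand joining and single-strand binding.

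The role sums set the roles side by side. The Rax-SmoCKO mean was 86.3% of the control mean for origin licensing, 84.2% for the MCM helicase, 81.1% for helicase activation and 84.5% for the clamp and its loader. It was 82.9% for the polymerases and primase, 90.1% for strand joining and single-strand binding, 89.0% for nucleotide supply, 80.9% for chromatin assembly and 87.4% for the E cyclins with Cdk2. Exons of Orc1 (Gm12743), Orc6 (Vps35), Rfc2 (Lat2), Rfc5 (Wsb2), Pole (Gm15792), Gli1 (Arhgap9 and Gm47200), Ccnd1 (LTO1) and Cdk6 (Gm17590) overlap those of the gene in brackets on the opposite strand, and those of Rpa1 overlap Gm47300 on its own strand, so reads of these pairs, and of those named beside a gene below, may be shared. Differences between roles were not tested, and a sum leans on its most abundant genes.

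Origin licensing marks where replication may start. All 6 genes had a log2 fold change below 0 (median -0.23), 3 of them at an unadjusted p under 0.05 and 1 with groups that did not overlap. Gmnn encodes geminin, which binds Cdt1 and blocks further licensing once S phase begins, and it had 73.7, 61.0, 64.4 and 76.4 CPM in control replicates 1 to 4 and 54.2, 59.6, 49.7 and 48.9 CPM in Rax-SmoCKO replicates 1 to 4. The lowest control library lay just above the highest Rax-SmoCKO library. Gmnn averaged 68.9 ± 7.34 CPM in control and 53.1 ± 4.93 CPM in Rax-SmoCKO (SD, n = 4 for both), a log2 fold change of -0.37 (SE 0.09, adjusted p = 0.234). Cdt1, the loader that geminin restrains, had 118, 130.3, 119 and 108 CPM in control replicates 1 to 4 and 109, 97.5, 97.3 and 105 CPM in Rax-SmoCKO replicates 1 to 4. Control replicate 4 lay below the highest Rax-SmoCKO library, so the groups overlapped. Cdt1 had a log2 fold change of -0.22 (SE 0.07, adjusted p = 0.384). Orc2, a subunit of the origin recognition complex, had 56.5, 64.8, 70.8 and 67.2 CPM in control replicates 1 to 4 and 58.5, 58.9, 48.4 and 52.2 CPM in Rax-SmoCKO replicates 1 to 4, and its exons overlap Nif3l1 on the opposite strand. Here control replicate 1 was low and lay among the Rax-SmoCKO libraries. Orc2 had a log2 fold change of -0.25 (SE 0.09, adjusted p = 0.408). Cdc6, the ATPase that works with Cdt1, had a value of -0.23 (SE 0.12, adjusted p = 0.557), or -0.11 without control replicate 4, and Orc1, the largest subunit of the complex, one of -0.16 (SE 0.18, adjusted p = 0.827). For Orc6, another subunit of the complex, the value was -0.02, with an interval from -0.21 to 0.17. Without Rax-SmoCKO replicates 2 and 3, Orc1 stood at 0.026 and Orc6 at 0.076.

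The MCM helicase is the ring of 6 related subunits, Mcm2 to Mcm7, that unwinds the parental strands. All 6 genes were below 0 (median -0.26), 5 of them at an unadjusted p under 0.05 and the same 5 with groups that did not overlap. Mcm7, on chromosome 5 from 138164583 to 138172422 of GRCm38, had 438, 438, 434 and 460.5 CPM in control replicates 1 to 4 and 377, 352, 371 and 340.0 CPM in Rax-SmoCKO replicates 1 to 4. All control libraries lay close together above all Rax-SmoCKO libraries. Mcm7 averaged 443 ± 11.9 CPM in control and 360.0 ± 16.9 CPM in Rax-SmoCKO (SD, n = 4 for both), a log2 fold change of -0.30 (SE 0.05, adjusted p = 0.064), and ranked 16th of 14730 genes by p. Its adjusted p ran from 0.000202 to 0.239 over the alternatives, the lowest in DESeq2. The microRNA genes Mir25 and Mir93 overlap exons annotated for it on the same strand, and Cops6 and Ap4m1 overlap it on the other.

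Mcm5 had 141, 133, 132 and 127 CPM in control replicates 1 to 4 and 114, 113, 98.4 and 91.7 CPM in Rax-SmoCKO replicates 1 to 4. Its Rax-SmoCKO libraries were more spread than its control libraries and all lower. Mcm5 averaged 133 ± 5.64 CPM in control and 104 ± 10.99 CPM in Rax-SmoCKO (SD, n = 4 for both), a log2 fold change of -0.35 (SE 0.08, adjusted p = 0.162), with an adjusted p of 0.0255 in DESeq2 and a range from 0.00848 to 0.373 over the alternatives. Mcm3 had 280.0, 275, 270.0 and 259 CPM in control replicates 1 to 4 and 233, 244, 221 and 219 CPM in Rax-SmoCKO replicates 1 to 4. The groups were again apart, with Rax-SmoCKO replicate 2 nearest to the control libraries. Mcm3 had a log2 fold change of -0.24 (SE 0.06, adjusted p = 0.224), with an adjusted p of 0.04 in DESeq2 and a range from 0.04 to 0.449 over the alternatives.

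Mcm2 had 185, 166, 163 and 197 CPM in control replicates 1 to 4 and 140.3, 145, 154 and 146 CPM in Rax-SmoCKO replicates 1 to 4. The Rax-SmoCKO libraries were close together and below the lowest control library. Mcm2 had a log2 fold change of -0.28 (SE 0.07, adjusted p = 0.234). Mcm6 had 239, 239, 229.8 and 266 CPM in control replicates 1 to 4 and 213, 202, 202 and 212 CPM in Rax-SmoCKO replicates 1 to 4, with the groups apart and control replicate 4 the highest library. Mcm6 had a log2 fold change of -0.24 (SE 0.06, adjusted p = 0.244). Mcm4 had overlapping groups, with 256, 219, 209 and 206 CPM in control replicates 1 to 4 and 219, 223, 208 and 182 CPM in Rax-SmoCKO replicates 1 to 4. Control replicate 1 was high, and the other control libraries lay within the Rax-SmoCKO range. Mcm4 had a log2 fold change of -0.10 (SE 0.09, adjusted p = 0.772), or -0.02 without control replicate 1, with an interval from -0.28 to 0.09, which overlaps those of the other 5 subunits, and a difference between subunits was not tested.

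**Figure D3:**
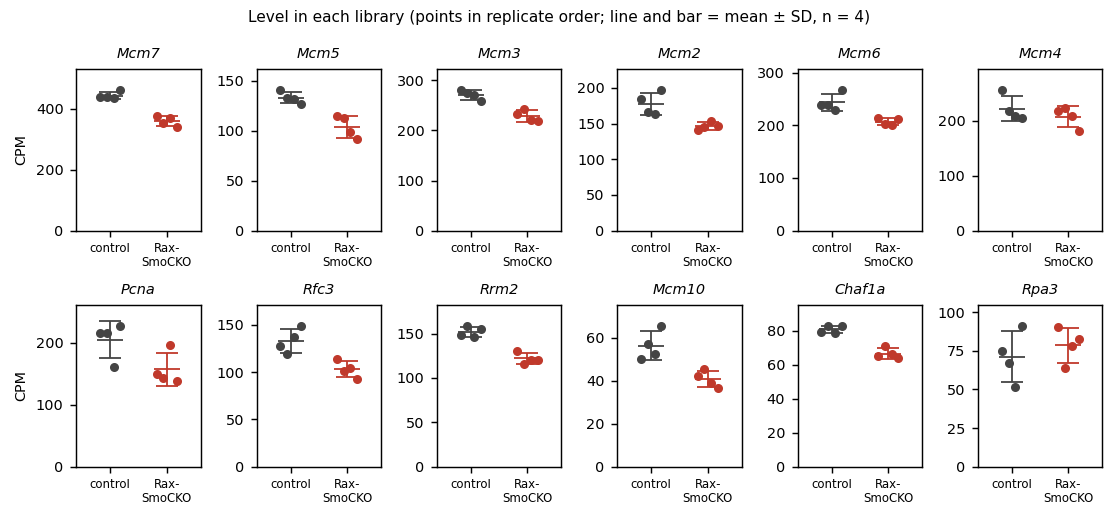
CPM (y axis, from 0) of 12 replication genes in each library, control in dark and Rax-SmoCKO in red, with the mean and SD of the 4 libraries of a group. The groups do not overlap for Mcm7, Mcm5, Mcm3, Mcm2, Mcm6, Rfc3, Rrm2, Mcm10 and Chaf1a, and they overlap for Mcm4, Pcna and Rpa3.

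The promoters of these genes were searched for E2F words because E2F factors are known regulators of many genes of the set. RefSeq promoter windows, from 250 bases before to 50 after the start, were at hand for 37 of the 46 genes, and the words searched on both strands were TTTCCCGC, TTTGGCGC, TTTCGCGC and TTTGCCGC. At least 1 word was found in 14 of the 37 (37.8%), beside 4.93% of the 10231 tested genes with a window and 2.6% of all 27025 genes with one. Among other replication factors outside the set it was found in 12 of 37 (32.4%), and among genes of G2 and mitosis in 1 of 28 (3.57%). The share is therefore not particular to these 46 genes. By role, words were found in 4 of 5 MCM genes, 3 of 5 licensing genes and 3 of 5 polymerase genes, and in 0 of 5 nucleotide supply and 0 of 2 chromatin assembly genes. The windows with 2 or more words, Mcm3, Mcm5, Mcm6, Mcm7 and Rfc3, are shown. That of Rpa3, picked as the 1 gene above 0, is shown with them and holds none of the 4 exact words. In GRCm38.p6 they lie at chr1:20820263-20820562 (minus strand), chr8:75109259-75109558 (plus), chr1:128359656-128359955 (minus), chr5:138171834-138172133 (minus), chr5:151651159-151651458 (minus) and chr6:8259092-8259391 (minus), each 300 bases on the strand of the gene, 5′ to 3′, with the E2F words in capitals.
Mcm3: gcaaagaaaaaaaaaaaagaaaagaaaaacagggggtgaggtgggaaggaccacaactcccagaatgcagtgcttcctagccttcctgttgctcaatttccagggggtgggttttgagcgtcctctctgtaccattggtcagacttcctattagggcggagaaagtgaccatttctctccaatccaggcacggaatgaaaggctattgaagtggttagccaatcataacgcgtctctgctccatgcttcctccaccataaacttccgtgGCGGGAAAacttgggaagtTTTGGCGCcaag
Mcm5: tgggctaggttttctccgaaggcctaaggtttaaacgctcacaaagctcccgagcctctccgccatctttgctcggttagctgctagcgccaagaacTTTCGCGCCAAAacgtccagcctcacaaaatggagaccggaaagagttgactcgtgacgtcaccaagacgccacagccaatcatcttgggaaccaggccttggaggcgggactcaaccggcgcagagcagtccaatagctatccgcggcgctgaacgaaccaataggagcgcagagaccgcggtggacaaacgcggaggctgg
Mcm6: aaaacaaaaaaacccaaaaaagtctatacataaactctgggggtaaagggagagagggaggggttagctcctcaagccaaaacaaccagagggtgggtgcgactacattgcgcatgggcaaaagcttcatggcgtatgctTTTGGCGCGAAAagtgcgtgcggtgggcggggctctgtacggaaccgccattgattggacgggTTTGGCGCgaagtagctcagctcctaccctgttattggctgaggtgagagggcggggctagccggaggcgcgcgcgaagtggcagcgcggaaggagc
Mcm7: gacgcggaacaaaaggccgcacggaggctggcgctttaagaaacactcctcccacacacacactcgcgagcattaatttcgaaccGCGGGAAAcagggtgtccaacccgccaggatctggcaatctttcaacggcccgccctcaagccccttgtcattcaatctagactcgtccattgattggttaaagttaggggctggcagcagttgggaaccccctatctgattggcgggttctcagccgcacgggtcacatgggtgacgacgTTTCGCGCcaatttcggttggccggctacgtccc
Rfc3: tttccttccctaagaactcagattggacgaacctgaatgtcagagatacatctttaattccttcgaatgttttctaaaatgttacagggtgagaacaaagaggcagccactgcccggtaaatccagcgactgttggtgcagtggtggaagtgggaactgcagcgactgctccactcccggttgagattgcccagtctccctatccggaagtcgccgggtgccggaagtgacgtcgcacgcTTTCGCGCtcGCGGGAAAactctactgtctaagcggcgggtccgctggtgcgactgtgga
Rpa3: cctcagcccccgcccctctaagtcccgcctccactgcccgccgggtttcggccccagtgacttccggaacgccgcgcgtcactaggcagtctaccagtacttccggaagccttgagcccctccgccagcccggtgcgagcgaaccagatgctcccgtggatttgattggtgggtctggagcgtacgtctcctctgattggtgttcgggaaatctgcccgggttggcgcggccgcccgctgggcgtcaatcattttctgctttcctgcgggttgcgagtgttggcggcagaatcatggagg
In Mcm5 and in the first run of Mcm6, a word on one strand overlaps a word on the other, so each of these runs counts as 2 matches. A match is a string of letters and not a measured binding site, and a window without these exact words may still hold a site.

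Within the set, the medians of genes with and without an E2F word lay close together. The 14 replication genes with a word had a median of -0.24, with 14 below 0 and 10 (71.4%) lower at an unadjusted p under 0.05, and the 23 without one had a median of -0.25, with 22 below 0 and 15 (65.2%) lower. Outside the set, tested genes with a word had a median of -0.051 over 490 genes, with 63.7% below 0, beside 0.0017 and 49.5% over the 9727 tested genes without one. With the other replication factors and the genes of G2 and mitosis left out as well, 477 genes remained, at a median of -0.048 and 62.9% below 0. These shares are descriptions, and genes are not independent replicates. Of other words, CCAAT was in 23 of the 37 replication windows (62.2%) and in 43.3% of those of tested genes. It was in 51.4% of the windows of other replication factors and in 78.6% of those of G2 and mitosis. The cell cycle words TTTGAA or TTCGAA were in 6 of the 37 (16.2%), beside 16.0% of tested genes, 24.3% of other replication factors and 22 of 28 genes of G2 and mitosis (78.6%).

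Helicase activation turns the loaded ring into a moving one. All 6 genes were below 0 (median -0.29), with 4 at an unadjusted p under 0.05 and 3 with groups apart. Mcm10, which joins the helicase as origins fire, had 49.9, 57.0, 52.2 and 65.2 CPM in control replicates 1 to 4 and 42.3, 45.2, 39.0 and 36.6 CPM in Rax-SmoCKO replicates 1 to 4. The lowest control library lay above the highest Rax-SmoCKO library. Mcm10 averaged 56.1 ± 6.76 CPM in control and 40.8 ± 3.78 CPM in Rax-SmoCKO (SD, n = 4 for both), a log2 fold change of -0.46 (SE 0.10, adjusted p = 0.154). Gins3, a subunit of the GINS complex, had 32.7, 29.0, 33.4 and 39.2 CPM in control replicates 1 to 4 and 24.7, 24.3, 25.3 and 19.9 CPM in Rax-SmoCKO replicates 1 to 4. Rax-SmoCKO replicate 4 was the lowest library and control replicate 4 the highest, and the groups were apart. Gins3 averaged 33.6 ± 4.22 CPM in control and 23.6 ± 2.45 CPM in Rax-SmoCKO (SD, n = 4 for both), a log2 fold change of -0.50 (SE 0.12, adjusted p = 0.186), the furthest below 0 in the set. Cdc45, the third component of the active helicase beside the ring and GINS, had 45.6, 41.7, 43.3 and 49.5 CPM in control replicates 1 to 4 and 34.7, 40.0, 33.6 and 33.2 CPM in Rax-SmoCKO replicates 1 to 4, and its exons overlap Ufd1 on the opposite strand. Its groups were apart by a narrow margin. Cdc45 had a log2 fold change of -0.34 (SE 0.09, adjusted p = 0.244). The other GINS genes stood at -0.25 (SE 0.10, adjusted p = 0.487) for Gins2, whose exons overlap Gse1 on the opposite strand, -0.16 for Gins1 and -0.12 for Gins4, and the groups of each overlapped.

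Pcna is the ring that holds polymerases on the template, and replication factor C, with subunits Rfc1 to Rfc5, loads it. All 6 genes were below 0 (median -0.26), with 4 at an unadjusted p under 0.05 and 3 with groups apart. Pcna had 216, 216, 160.2 and 226 CPM in control replicates 1 to 4 and 150.1, 142, 197 and 138 CPM in Rax-SmoCKO replicates 1 to 4. Control replicate 3 was low and Rax-SmoCKO replicate 3 was high, and these libraries made the groups overlap. Pcna averaged 205 ± 30.1 CPM in control and 157 ± 27.1 CPM in Rax-SmoCKO (SD, n = 4 for both), a log2 fold change of -0.39 (SE 0.13, adjusted p = 0.362), and it ran from -0.51 to -0.33 with single libraries left out, furthest from 0 without Rax-SmoCKO replicate 3. A pseudogene, Pcna-ps2, held 161 counts over the 8 libraries, beside 416 to 917 counts of Pcna in each.

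Rfc3 had 127, 119, 138 and 148 CPM in control replicates 1 to 4 and 114, 101, 104 and 93.1 CPM in Rax-SmoCKO replicates 1 to 4. The groups were apart, with control replicates 3 and 4 highest. Rfc3 had a log2 fold change of -0.37 (SE 0.08, adjusted p = 0.158), with an adjusted p of 0.0232 in DESeq2 and a range from 0.00449 to 0.374 over the alternatives. Rfc4 had 37.0, 39.6, 38.5 and 39.7 CPM in control replicates 1 to 4 and 34.0, 26.5, 30.1 and 29.9 CPM in Rax-SmoCKO replicates 1 to 4, and its exons overlap Eif4a2 on the opposite strand. The control libraries were close together and above all Rax-SmoCKO libraries. Rfc4 had a log2 fold change of -0.37 (SE 0.09, adjusted p = 0.234). The largest loader subunit, Rfc1, had a value of -0.14 (SE 0.06, adjusted p = 0.463) with groups apart, whereas Rfc2 at -0.10 and Rfc5 at -0.06 had overlapping groups. The interval of Rfc5 ran from -0.25 to 0.14, and the overlapping intervals of the 5 loader genes give no order among them.

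DNA polymerase alpha with primase starts each new strand, and polymerases delta and epsilon extend it. All 7 genes were below 0 (median -0.26), with 3 at an unadjusted p under 0.05 and 4 with groups apart. Pola1, the catalytic subunit of polymerase alpha, had 183, 179, 183 and 191 CPM in control replicates 1 to 4 and 170.1, 152, 137 and 143 CPM in Rax-SmoCKO replicates 1 to 4. The control libraries were close together, and Rax-SmoCKO replicate 1 lay nearest to them but below. Pola1 averaged 184 ± 4.92 CPM in control and 150.5 ± 14.4 CPM in Rax-SmoCKO (SD, n = 4 for both), a log2 fold change of -0.29 (SE 0.07, adjusted p = 0.234). It lies on the X chromosome, and without the libraries rich in Y-linked counts its direction was kept. Prim1, the catalytic subunit of primase, had 45.96, 44.8, 46.9 and 55.7 CPM in control replicates 1 to 4 and 38.1, 39.8, 41.7 and 37.6 CPM in Rax-SmoCKO replicates 1 to 4. The groups were apart. Prim1 had a log2 fold change of -0.30 (SE 0.09, adjusted p = 0.304). Pole2, an accessory subunit of polymerase epsilon, was low, at 34 to 69 counts per library, and had 18.8, 16.3, 14.5 and 16.2 CPM in control replicates 1 to 4 and 10.7, 14.8, 9.95 and 11.3 CPM in Rax-SmoCKO replicates 1 to 4. Rax-SmoCKO replicate 2 lay just above the lowest control library. Pole2 had a log2 fold change of -0.48 (SE 0.17, adjusted p = 0.389), and its exons overlap Gm49384 on the same strand. Prim2 (-0.26) and Pola2 (-0.19), the partner subunits of primase and polymerase alpha, had groups apart. The catalytic subunits Pole (-0.22) and Pold1 (-0.07) had overlapping groups and intervals that held 0.

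Lig1, Fen1 and the 3 subunits of replication protein A finish and protect the strands. Of the 5 genes, 4 were below 0 (median -0.19), with 3 at an unadjusted p under 0.05 and 2 with groups apart. Lig1, the ligase that joins Okazaki fragments, had 538, 613, 549 and 564 CPM in control replicates 1 to 4 and 514, 489, 486 and 504 CPM in Rax-SmoCKO replicates 1 to 4. Control replicate 2 was the highest library, and all Rax-SmoCKO libraries lay below the lowest control library. Lig1 had a log2 fold change of -0.19 (SE 0.05, adjusted p = 0.269), and its exons overlap Zswim9 on the opposite strand. Rpa2, a subunit of replication protein A, had 152, 146, 147 and 148 CPM in control replicates 1 to 4 and 135, 133, 120.4 and 123 CPM in Rax-SmoCKO replicates 1 to 4. The control libraries differed little, and the Rax-SmoCKO libraries were all below them. Rpa2 had a log2 fold change of -0.21 (SE 0.06, adjusted p = 0.285). Rpa1, the large subunit, had 98.5, 94.3, 90.9 and 101 CPM in control replicates 1 to 4 and 87.5, 92.7, 79.0 and 76.4 CPM in Rax-SmoCKO replicates 1 to 4. Rax-SmoCKO replicate 2 lay above the lowest control library, so the groups overlapped. Rpa1 had a log2 fold change of -0.19 (SE 0.07, adjusted p = 0.455).

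Rpa3, the small subunit, was the 1 gene of the set above 0, with 75.1, 67.2, 51.5 and 91.0 CPM in control replicates 1 to 4 and 90.6, 63.7, 78.2 and 82.4 CPM in Rax-SmoCKO replicates 1 to 4. Both groups were widely spread and overlapped almost wholly. Rpa3 had a log2 fold change of 0.15 (SE 0.15, adjusted p = 0.81) with an interval from -0.18 to 0.47, and it stayed above 0 under every alternative (0.02 to 0.29). Fen1, the nuclease that trims Okazaki fragments, had a value of -0.05 with an interval from -0.20 to 0.09 and overlaps Tmem258 on the opposite strand.

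Nucleotide supply limits the rate of DNA synthesis. All 5 genes were below 0 (median -0.17), with 3 at an unadjusted p under 0.05 and 1 with groups apart. Rrm2, the S phase subunit of ribonucleotide reductase, lies on chromosome 12 from 24708241 to 24714146 of GRCm38 and had 149, 158, 146 and 155 CPM in control replicates 1 to 4 and 131, 116, 121 and 120.3 CPM in Rax-SmoCKO replicates 1 to 4. Both groups were tight and well apart. Rrm2 averaged 152 ± 5.55 CPM in control and 122 ± 6.22 CPM in Rax-SmoCKO (SD, n = 4 for both), a log2 fold change of -0.32 (SE 0.06, adjusted p = 0.103), with an adjusted p of 0.0139 in DESeq2 and a range from 0.0139 to 0.273 over the alternatives. Rrm1, the subunit that pairs with it, had a value of -0.10 (SE 0.06, adjusted p = 0.623) with an interval from -0.22 to 0.03. Dut, which keeps uracil out of DNA by breaking down dUTP, had 344, 314, 291 and 333 CPM in control replicates 1 to 4 and 279.7, 276, 307 and 279.9 CPM in Rax-SmoCKO replicates 1 to 4. Rax-SmoCKO replicate 3 was high and lay above the lowest control library. Dut had a log2 fold change of -0.17 (SE 0.07, adjusted p = 0.456). Tk1, the thymidine kinase of the salvage pathway, had 31.4, 29.0, 25.2 and 28.6 CPM in control replicates 1 to 4 and 21.9, 21.9, 28.2 and 21.3 CPM in Rax-SmoCKO replicates 1 to 4, and its exons overlap Afmid on the opposite strand. Again Rax-SmoCKO replicate 3 was high, as it was for Pcna, and made the groups overlap. Tk1 had a log2 fold change of -0.29 (SE 0.12, adjusted p = 0.486). Tyms, thymidylate synthase, had a value of -0.13 (SE 0.07, adjusted p = 0.568).

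Chromatin assembly factor 1 places histones on new DNA at the clamp. Both of its genes in the set were below 0 (median -0.35), at an unadjusted p under 0.05 and with groups apart. Chaf1a, its large subunit, had 79.3, 82.5, 78.7 and 82.6 CPM in control replicates 1 to 4 and 64.9, 70.8, 66.4 and 63.8 CPM in Rax-SmoCKO replicates 1 to 4. The groups were tight and apart. Chaf1a averaged 80.8 ± 2.04 CPM in control and 66.5 ± 3.06 CPM in Rax-SmoCKO (SD, n = 4 for both), a log2 fold change of -0.28 (SE 0.06, adjusted p = 0.154), and its exons overlap Ubxn6 on the opposite strand. Chaf1b, the middle subunit, was low, at 31 to 76 counts per library, and had 17.2, 17.9, 14.5 and 19.0 CPM in control replicates 1 to 4 and 14.0, 13.3, 13.4 and 10.3 CPM in Rax-SmoCKO replicates 1 to 4. The groups were apart by a narrow margin. Chaf1b had a log2 fold change of -0.42 (SE 0.15, adjusted p = 0.423).

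The E cyclins with Cdk2 stand at the entry to S phase. All 3 genes were below 0 (median -0.27), with 1 at an unadjusted p under 0.05 and 0 with groups apart. Ccne2, an E cyclin whose exons overlap Ints8 on the opposite strand, had 62.5, 63.2, 49.7 and 58.5 CPM in control replicates 1 to 4 and 54.7, 48.4, 48.9 and 41.2 CPM in Rax-SmoCKO replicates 1 to 4. Control replicate 3 was low and lay below Rax-SmoCKO replicate 1. Ccne2 had a log2 fold change of -0.27 (SE 0.10, adjusted p = 0.436). Ccne1, the other E cyclin, had 32.4, 29.7, 30.6 and 32.8 CPM in control replicates 1 to 4 and 23.1, 33.1, 27.7 and 17.3 CPM in Rax-SmoCKO replicates 1 to 4. The control libraries were tight, whereas Rax-SmoCKO replicate 2 lay above them all and Rax-SmoCKO replicate 4 far below. Ccne1 had a log2 fold change of -0.29 (SE 0.16, adjusted p = 0.589), which was -0.16 without Rax-SmoCKO replicate 4 and -0.45 without Rax-SmoCKO replicate 2. Cdk2, their kinase, had 56.2, 45.0, 54.3 and 43.9 CPM in control replicates 1 to 4 and 49.0, 48.6, 53.2 and 42.9 CPM in Rax-SmoCKO replicates 1 to 4. The groups overlapped almost wholly. Cdk2 had a log2 fold change of -0.04 (SE 0.10, adjusted p = 0.943) with an interval from -0.25 to 0.18. Its exons overlap Pmel, a pigment cell gene, on the opposite strand, and the part of shared reads was not tested.

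For G1, the step before S phase, only Cdk6 and Ccnd1 were chosen, and the study had already reported both as lower in these data. Both passed the test, as did 0.095% of all tested genes in either direction. They do not stand for the other genes of G1. Cdk6, a kinase that the D cyclins activate, had 238, 236, 205 and 229 CPM in control replicates 1 to 4 and 144, 126, 135 and 109 CPM in Rax-SmoCKO replicates 1 to 4. Ccnd1, which encodes cyclin D1, had 3273, 3256, 2602 and 3519 CPM in control replicates 1 to 4 and 2207, 2138, 2357 and 2245 CPM in Rax-SmoCKO replicates 1 to 4. Both fell, with groups apart, by log2 fold changes of -0.82 and -0.50 (adjusted p = 0.00105 and 0.0116, edgeR). Ccnd1 lost its call without control replicate 1 (adjusted p = 0.0649), without Rax-SmoCKO replicate 1 (adjusted p = 0.059), without both libraries richest in lens genes (adjusted p = 0.0598) and without the pair rich in Y-linked counts (adjusted p = 0.0805), whereas Cdk6 passed in each of these fits.

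Other genes of DNA replication that are not in the set also had values mostly below 0. Of 44 further factors, such as Cdc7, Topbp1, Dnmt1 and Ccna2, 43 were tested, 41 were below 0 and the median was -0.15, and a difference from the set's median was not tested. None passed in edgeR or limma-voom and 1, the histone chaperone gene Nasp, passed in DESeq2, with 15 lower and 0 higher in edgeR at an unadjusted p under 0.05 and 13 with groups apart and lower. Over all tested genes, 4.68% were lower and 4.8% higher at that p, and 2.95% were lower with groups apart. Nasp had 892, 838, 867 and 868 CPM in control and 777, 759, 769 and 689 CPM in Rax-SmoCKO. Every Rax-SmoCKO library was lower than every control library. Nasp had a log2 fold change of -0.21 (SE 0.04, adjusted p = 0.139). Uhrf1, which brings the maintenance methyltransferase to new DNA, had a value of -0.29 (SE 0.06, adjusted p = 0.154), and Timeless, a factor that protects the replication fork, one of -0.25 (SE 0.06, adjusted p = 0.219).

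Lists of mitochondrial DNA replication and of DNA repair had medians nearer to 0. Of 12 genes of mitochondrial DNA replication, 9 were below 0 (median -0.05), with 0 passing in edgeR, DESeq2 or limma-voom, 0 at an unadjusted p under 0.05 in edgeR and 1 with groups apart and lower. Polrmt, the mitochondrial RNA polymerase that primes replication, had a value of -0.31 (SE 0.17, adjusted p = 0.588), Tfam, which packs mitochondrial DNA, one of -0.09 (SE 0.06, adjusted p = 0.704), and Top1mt, the mitochondrial topoisomerase, one of -0.32 (SE 0.25, adjusted p = 0.731). Of 14 repair polymerases, ligases and their partners, 8 were below 0 (median -0.04), with 0 passing in the same tools, 3 lower and 0 higher at an unadjusted p under 0.05 and 2 with groups apart and lower. Over all tested genes, 4.68% were lower and 4.8% higher at that p, and 2.95% were lower with groups apart. The shares lower in the repair list were above these. The double-strand break factor Xrcc5 had a value of -0.27 (SE 0.07, adjusted p = 0.234), Parp1, a sensor of DNA breaks, one of -0.14 (SE 0.05, adjusted p = 0.457), and Rev1, a polymerase that passes damaged bases, one of -0.18 (SE 0.08, adjusted p = 0.527). The difference between these lists and the replication genes was not tested.

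**Figure D4:**
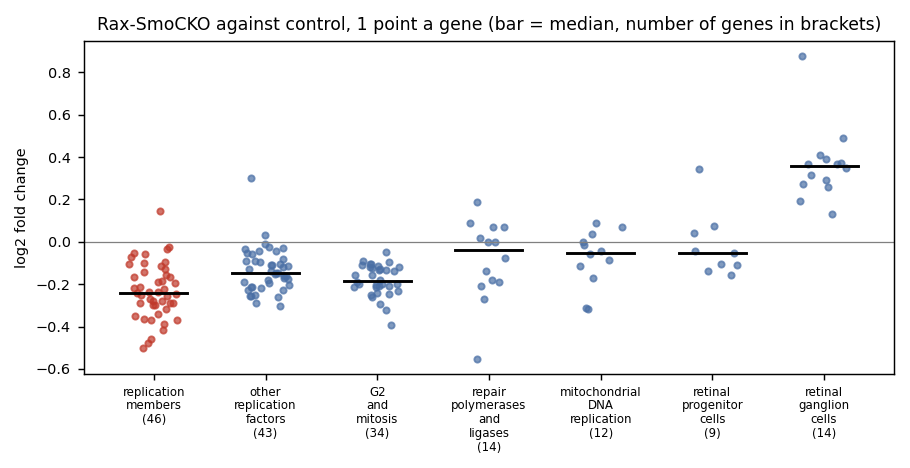
Log2 fold change of each gene (y axis, 1 point a gene, bar for the median) in the replication set and in 6 other lists on the x axis, with the number of genes tested in brackets. The replication genes have a median of -0.24, the genes of G2 and mitosis -0.19, and the retinal ganglion cell markers 0.36.

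Genes of G2 and mitosis, which dividing cells use after S phase, also had values below 0. All 34 were below 0 (median -0.19), with 0 passing in edgeR and limma-voom, 1 (Cdk1) in DESeq2, and 18 lower and 0 higher in edgeR at an unadjusted p under 0.05. In 11 of the 34 the groups were apart and Rax-SmoCKO was lower. Over all tested genes, 4.68% were lower at that p and 2.95% were lower with groups apart. Nuf2, whose protein ties chromosomes to the spindle, had a value of -0.39 (SE 0.10, adjusted p = 0.234), Aurkb, a mitotic kinase, one of -0.29 (SE 0.07, adjusted p = 0.234), and Cdk1, the kinase that drives mitosis, one of -0.25 (SE 0.07, adjusted p = 0.243). For each 100 CPM of these mitotic genes, the replication genes held 64.3 to 71.6 CPM in control and 64.2 to 67.8 CPM in Rax-SmoCKO. These ranges overlapped.

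Marker lists of cell types were read beside the set. The 9 progenitor markers had a median log2 fold change of -0.05, with 6 below 0 and 2 lower and 1 higher in edgeR at an unadjusted p under 0.05. Over all tested genes, 4.68% were lower and 4.8% higher at that p. None of the 9 markers passed in edgeR or limma-voom and 1, Rax, was called higher in DESeq2 (log2 fold change 0.35, adjusted p = 0.0278). The Rax-Cre transgene is built on a BAC of the Rax locus, and whether it adds to the Rax counts was not tested. Rax is kept in the progenitor sum used next. For each 100 CPM of progenitor markers, the replication genes held 89.0, 93.0, 85.6 and 94.3 CPM in control replicates 1 to 4 and 77.5, 83.7, 80.9 and 74.5 CPM in Rax-SmoCKO replicates 1 to 4. The highest Rax-SmoCKO library was just below the lowest control library there, a gap that depends on which markers the list holds. Rax, Pax6 and Six3, the 3 markers above 0, stood at 127.3, 105.5 and 103.1% of their control means, which lowers this ratio in Rax-SmoCKO. The ratio without these markers is not given, so the gap does not show less replication RNA per progenitor cell. Of 15 retinal ganglion cell markers, 14 were tested and all were above 0 (median 0.36), with 12 higher and 0 lower at an unadjusted p under 0.05, 0 passing in edgeR and limma-voom and 3 in DESeq2. DESeq2 called 26 genes higher over the whole table. The sum of the ganglion cell markers was 5277, 5311, 5463 and 6227 CPM in control replicates 1 to 4 and 6618, 5971, 6553 and 8307 CPM in Rax-SmoCKO replicates 1 to 4. Rax-SmoCKO replicate 4 had the highest sum of ganglion cell markers and the lowest sum of replication genes. Among the controls, replicate 4 had the highest sum of both lists, and Rax-SmoCKO replicate 1 had the highest replication sum of its group. The part of a larger neuron share in the replication values was not tested.

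**Figure D5:**
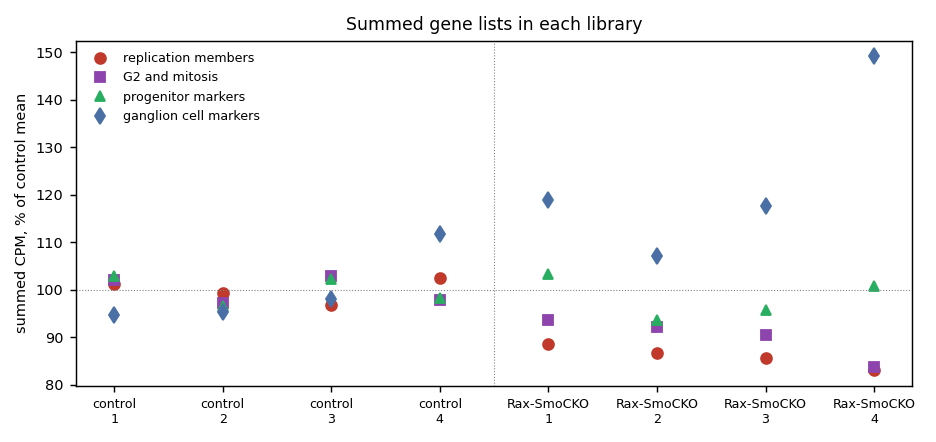
Summed CPM of the replication genes, the genes of G2 and mitosis, the progenitor markers and the ganglion cell markers in each library (x axis), as a percentage of the control mean (y axis). The replication sum is below every control library in all 4 Rax-SmoCKO libraries, whereas the progenitor marker sums of the groups overlap.

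Markers of blood and of tissues around the retina varied widely between libraries. Lens genes summed to 11.9, 19233, 9.68 and 16.0 CPM in control replicates 1 to 4 and 79.7, 471, 34.1 and 10.97 CPM in Rax-SmoCKO replicates 1 to 4, with 10 of 17 genes tested. Retinal pigment epithelium genes summed to 64.6 to 280.2 CPM and 102 to 641 CPM in the groups, erythroid genes to 910.2 to 1703 CPM and 910.4 to 3799 CPM, and mesenchyme and vessel genes to 241 to 331 CPM and 245 to 572 CPM. The groups overlapped for each of these sums, and no gene of these lists passed in edgeR, DESeq2 or limma-voom. All 6 tested pigment epithelium genes were above 0 (median 1.16, 3 of them higher in edgeR at an unadjusted p under 0.05), as were 9 of 10 mesenchyme and vessel genes (median 0.77, 2 higher) and 7 of 8 erythroid genes (median 0.58, 0 higher). All 10 lens genes were below 0 (median -4.81, 9 lower), with control replicate 2 holding nearly all lens counts of the controls. Over all tested genes, 4.68% were lower and 4.8% higher at that p. The part of these tissues in the replication values was not tested. Without both libraries richest in lens genes the median of the replication genes was -0.24, and it was -0.23 without the pair rich in Y-linked counts, so the lower values did not rest on either pair.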

How the data were processed

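RNA of isolated retinas from 4 control and 4 Rax-SmoCKO samples was prepared with the QuantSeq forward kit and its molecular identifier module. The methods list a larger Rax-SmoCKO group, of which 4 samples are analysed here. After trimming and alignment to the mouse genome, the authors tallied reads per Ensembl gene by featureCounts, and the deposited values were read as raw counts, because they are whole numbers whose totals differ between libraries, although the title of the study's table calls them normalized. The table's mean counts per group, a signal averaged by the authors, were not used. STAR 2.7.0e and limma appear in the submitters' processing notes with the builds GRCm38, mm10 and GRCh38. Collapsing of identifiers and the strand setting of the counting are not given in the sources used here.

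Samples were grouped by their titles. Genes that reached 5 counts in 4 or more libraries (14730 of 57180) were compared with edgeR 4.0.16 in R 4.3.3, by a quasi-likelihood fit on group with TMM scaling and Benjamini-Hochberg adjustment over all tested genes, and called at an adjusted p under 0.05. The SE of a log2 fold change was its size over the root of the F statistic. Alternatives were RLE size factors, library size alone, DESeq2 1.42.0, limma-voom (limma 3.58.1), at least 10 counts, no low-count filter, a replicate block, and leaving out each library or either pair that stood apart. DESeq2 without independent filtering was added after seeing the data. Rows without a symbol (525) held 0.094% of the counts. Positions came from GENCODE M21 and promoters from RefSeq on GRCm38.p6. Pictures were drawn with matplotlib 3.10.9.

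The replication genes and all lists were chosen with earlier results of these data known. A progenitor marker of the planned list is not reported here, and its list was computed without it. Values in every library are given for the genes of each role with the 3 smallest p, and for Pcna, Mcm2, Ccne1 and further genes chosen after their values were seen, such as Mcm4 and Rpa3. The 3 genes with the smallest p are named from each list of other factors. Fits were also run on simulated counts, but the outcome is not given here, so the power to call changes of this size is not stated. All pairs of libraries within a group differed by more than sampling noise (chi-square over degrees of freedom, 2.18 to 9.85).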

Additional observations from a re-analysis of the deposited data

Results flagged for a closer look

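Of the 92 groups of 4 values, 1 per gene and group, 6 (6.52%) held a library far from the other 3, where chance alone gives about 1 in 20. Pcna was at 160.2 CPM in control replicate 3, against 216.1 to 226.5 CPM in the other control libraries. In Rax-SmoCKO replicate 3, Tk1 was at 28.22 CPM against 21.27 to 21.94 CPM, and Dut was at 307.0 CPM against 276.2 to 279.9 CPM. Orc6 was at 56.58 CPM in Rax-SmoCKO replicate 2, against 70.16 to 72.46 CPM. Gins4 was at 35.38 CPM in control replicate 1, against 41.99 to 42.42 CPM. Mcm7 was at 460.5 CPM in control replicate 4, against 434.3 to 438.4 CPM.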

How the results depend on the processing

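The number of replication genes past an adjusted p under 0.05 was 0 in edgeR and stayed at 0 with RLE size factors, library size alone, a minimum of 10 counts, each library left out in turn (range 0 to 0), both libraries richest in lens genes left out and the pair rich in Y-linked counts left out. It was 5 in DESeq2, 4 in DESeq2 without independent filtering, which was added after seeing the data, 1 in limma-voom and 9 in edgeR without a filter, where 289 of all genes passed in place of 14. With single libraries left out, the median log2 fold change ran from -0.26 to -0.21, and the genes below 0 from 43 to 45. Genes with a lower level and an unadjusted p under 0.05 numbered 24 to 29. Those lower with groups apart numbered 22 to 27, against 21 with all libraries. Smaller groups overlap less readily, so this last count tends to rise when any library is dropped. Its range is therefore no check of stability, and the matching share of all tested genes is not given for these fits. Of 828 values of single genes over the alternatives, 799 kept their direction and side of the threshold, 19 (10 genes) newly passed it and 10 (4 genes) turned direction, each of them near 0. Orc6 stood at 0.014 without control replicate 1, 0.058 without Rax-SmoCKO replicate 2, 0.033 without the lens-rich libraries and 0.076 without those rich in Y-linked counts. Cdk2 stood at 0.021, 0.010 and 0.013 without control replicates 1 and 3 and Rax-SmoCKO replicate 4, and at -0.088 without control replicate 4. Rfc5 stood at 0.012 without control replicate 4, -0.0996 without Rax-SmoCKO replicate 4 and 0.0068 without the libraries rich in Y-linked counts, and Orc1 at 0.026 without the latter. The cause was not tested.

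With the replicate number as a block, 0 replication genes and 38 of all genes passed, in place of 14, and the median was -0.24. Deviations of libraries with the same number correlated at 0.098, 0.25, -0.055 and 0.048, and not every library correlated best with its own number, so the numbers were not taken to pair the samples. The lowest genes were Pole2 at 34 to 69 counts per library, Chaf1b at 31 to 76, Pole at 38 to 76 and Orc1 at 44 to 81. In that order their SE was 0.17, 0.15, 0.20 and 0.18 on the log2 scale, against 0.05 for Mcm7 at 1023 to 1860 counts.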
